A study of Mus musculus with 12 samples.

Results

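The 8 genes described here encode transcription factors that are enriched in hepatocytes, namely Hnf4a, Foxa1, Foxa2, Foxa3, Cebpa, Cebpb, Prox1 and Onecut1. They were chosen by name for their known role in liver, and all 8 were found by symbol among the 24062 genes counted. Their mRNA was measured in livers that develop tumors and in xenografts of a liver cancer line, each from mice fed with or without tryptophan (Trp). Each of the 12 RNA-seq libraries came from 1 mouse, in 4 groups of 3. MYC-ON livers came from male LAP-tTA/TRE-MYC mice on the FVB background, in which doxycycline was withdrawn on the day of birth to switch on the MYC transgene. LAP is another name of the C/EBPβ protein, so the promoter that drives the tTA activator, which in turn switches on TRE-MYC, derives from the gene of one of the 8 factors. The labels give 45 days as the age of MYC-ON males without stating it separately for the mice on these diets. Mice 101, 102 and 103 were on the control diet, and mice 105, 107 and 108 were on the No-Trp diet, for 21 days. HCC53N is a line of mouse liver tumor cells that lacks p53 and carries mutant NRAS, which was injected subcutaneously into female NOD SCID mice (written NOD-SKID in the labels). Its labels also call the tumor cells FVB MYC ON. Mice 40, 41 and 43 were on the control diet, and mice 35, 36 and 37 were on the No-Trp diet, also for 21 days. The xenografts come from 1 cell line and hold host cells as well.

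Hepatocyte identity is held by a network of factors that bind each other's genes and the genes of liver metabolism. HNF4α, encoded by Hnf4a, is a nuclear receptor that binds as a homodimer and is central to this network. FOXA1, FOXA2 and FOXA3 are forkhead proteins that can open compacted chromatin, and ONECUT1 (also called HNF6) is a cut-homeodomain factor of liver and bile duct development. C/EBPα is linked to the quiescent, metabolic state of hepatocytes, whereas C/EBPβ, which recognizes the same DNA motif, is induced during regeneration, inflammation and nutrient stress. PROX1 is a homeodomain protein needed by hepatoblasts, and it also marks lymphatic endothelium. In a bulk tissue, fewer cells of a type and less RNA per cell cannot be told apart.

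In GENCODE M21 on GRCm38, Hnf4a (ENSMUSG00000017950.16) lies at chr2:163506808-163572910 on the plus strand. Foxa1 (ENSMUSG00000035451.7) lies at chr12:57540628-57546916, Foxa2 (ENSMUSG00000037025.11) at chr2:148042877-148046969 and Foxa3 (ENSMUSG00000040891.6) at chr7:19013284-19023538, all on the minus strand. Cebpa (ENSMUSG00000034957.10) at chr7:35119293-35121928 and Cebpb (ENSMUSG00000056501.3) at chr2:167688915-167690418 are single-exon genes on the plus strand. Prox1 (ENSMUSG00000010175.13) lies at chr1:190118035-190170714 on the minus strand, and Onecut1 (ENSMUSG00000043013.10) at chr9:74861921-74891781 on the plus strand.

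The 250 bases before an annotated start of 3 of the genes are shown here, from RefSeq on GRCm38.p6, written along the gene's strand. Cebpb is shown because its mRNA moved in opposite directions in the livers and the xenografts, Hnf4a, by the first of its 2 starts, because it was the most abundant factor in the livers, and Foxa1 because it is the member with a forkhead motif in its own window. Capitals mark matches to 6 motifs searched on both strands, namely forkhead TGTTTAC, C/EBP TTGCNNAA, HNF4 CAAAGTCCA, ONECUT ATCAAT, E-box CACGTG and the cyclic AMP response element (CRE) core TGACGC.
Cebpb, chr2:167688665-167688914, plus strand: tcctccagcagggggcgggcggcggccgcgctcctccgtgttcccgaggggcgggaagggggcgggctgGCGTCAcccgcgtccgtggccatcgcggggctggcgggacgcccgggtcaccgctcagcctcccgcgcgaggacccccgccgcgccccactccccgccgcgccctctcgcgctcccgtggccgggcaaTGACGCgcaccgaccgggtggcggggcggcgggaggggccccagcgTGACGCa
Hnf4a, chr2:163506607-163506856, plus strand: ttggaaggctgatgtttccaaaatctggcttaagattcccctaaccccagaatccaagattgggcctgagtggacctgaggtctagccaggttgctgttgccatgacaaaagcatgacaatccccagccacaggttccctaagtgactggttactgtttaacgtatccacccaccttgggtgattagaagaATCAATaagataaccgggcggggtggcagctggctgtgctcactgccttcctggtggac
Foxa1, chr12:57546112-57546361, minus strand: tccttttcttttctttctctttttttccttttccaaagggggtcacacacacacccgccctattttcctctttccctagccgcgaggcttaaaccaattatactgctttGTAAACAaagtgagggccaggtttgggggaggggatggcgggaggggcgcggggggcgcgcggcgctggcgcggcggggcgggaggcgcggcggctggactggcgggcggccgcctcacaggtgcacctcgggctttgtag

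The Cebpb window held the letters TGACGC 3 times, with first bases at -181, -53 and -7 from the start, and 81.6% of its bases were G or C. Of 32851 mouse promoter windows of this length, 6.12% held TGACGC at least once and 0.0457% held it 3 or more times. These shares are for these letters only, over windows of any G and C content, and not for every form of the CRE. The Hnf4a window shown held the ONECUT motif at -59 (6.72% of windows), and the Foxa1 window held the forkhead motif at -141 (3.17% of windows). The window of the second Hnf4a start, chr2:163546905-163547154, held 0 matches. Which of the 2 starts was used in the livers was not examined. One of the 3 Foxa2 windows held the ONECUT motif, while the Onecut1 window held the E-box (6.02% of windows). The searched letters were absent from the windows of Foxa3, Cebpa and Prox1. The C/EBP motif (9.56% of windows) and the HNF4 motif (0.384% of windows) were absent from the windows of all 8 genes. A match describes letters in this window only. The Foxa1 window, placed by the RefSeq start, lies inside the GENCODE span given above, and so downstream of the GENCODE start.

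Between 14660963 and 26085349 reads per library were counted on genes. Levels are given as CPM, reads scaled to a common library size, with TMM factors over all 12 libraries. The spread between mice over all genes was 31.6% of the level in the livers and 28.7% in the xenografts. Reads on Rn45s, a ribosomal RNA precursor, made up 12.1% of mouse 101 and 2.22% of mouse 102, against at most 0.758% elsewhere. A resubmission mark is carried by the data of livers 101 and 108 and of control xenografts 41 and 43, and no source used here explains it. The summed level of 20 hepatocyte markers was 12523 to 49683 CPM in control livers and 71114 to 168226 CPM in No-Trp livers. It was 718 to 1728 CPM in control xenografts and 635 to 1484 CPM in No-Trp xenografts. The summed level of 10 cholangiocyte markers was 115 to 215 CPM over the livers and 3026 to 10935 CPM over the xenografts.

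**Figure D1:**
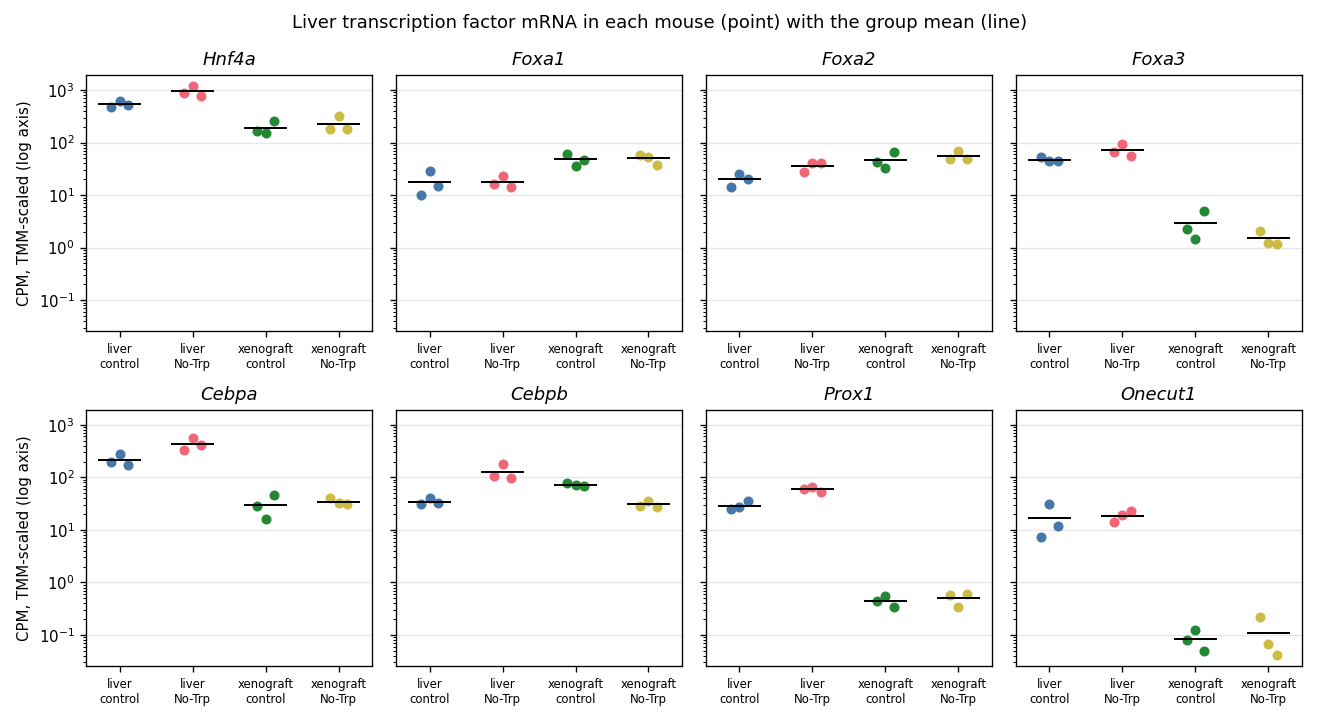
Level of each factor in every mouse, in CPM with TMM scaling on a log axis, with points for mice and lines for group means (3 mice per group). Cebpb was higher on the No-Trp diet in livers and lower in xenografts, while Foxa3, Prox1 and Onecut1 were far lower in every xenograft than in every liver.

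The first question was how the factors differed between diets in MYC-ON livers. Cebpb, Cebpa and Prox1 were higher without Trp, and no member was lower. These 3 of 8 members had both an adjusted p up to 0.05 and a log2 fold change of 1 or more in edgeR's quasi-likelihood test, against 16.5% of the 14122 genes tested in either direction and 9.28% in the higher direction. The median log2 fold change of the 8 members was 0.86, and that of all genes tested was -0.0031. In 6 of the 8 genes the No-Trp mice all lay above the control mice, a pattern found in 23.6% of all genes tested. Other markers moved with the diet in the same livers. Of 7 erythroid markers 6 were lower, with sums of 369 to 877 CPM in control and 119 to 131 CPM in No-Trp livers. Of 9 fetal liver and tumor markers 2 were lower (24061 to 30583 CPM and 2364 to 13912 CPM), while 12 of 19 hepatocyte markers and 5 of 11 blood endothelial markers were higher. Their part in the member results was not tested.

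Cebpb, the stress-responsive factor, changed most. Its level was 30.8, 40.2 and 33.1 CPM in control livers 101, 102 and 103, and 107, 179 and 97.7 CPM in No-Trp livers 105, 107 and 108. The lowest No-Trp mouse was above the highest control mouse. The log2 fold change was 1.904 (SE 0.27, adjusted p = 0.0142 by edgeR), a ratio of 3.74. It was no longer called without liver 101 (adjusted p = 0.0518) or liver 103 (0.0833), at log2 fold changes of 1.82 and 1.86.

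Cebpa, its relative of the metabolic liver, was at 195, 283 and 175 CPM in control livers and at 338, 565 and 421 CPM in No-Trp livers, in the same order of mice. The groups did not overlap, and the log2 fold change was 1.04 (SE 0.27, adjusted p = 0.0355 by edgeR). This call was lost without any one of livers 101, 103, 105, 107 and 108, where the log2 fold change ranged from 0.81 to 1.21, and with library totals in place of TMM (0.72, adjusted p = 0.0693).

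Prox1 was at 24.5, 27.2 and 35.6 CPM in control livers and at 60.4, 65.5 and 53.8 CPM in No-Trp livers. All No-Trp mice were above all control mice, with a log2 fold change of 1.06 (SE 0.19, adjusted p = 0.0196 by edgeR). Its call was lost without any one of livers 101, 102, 103, 105 and 107, with log2 fold changes from 0.94 to 1.22, and with library totals (0.73, adjusted p = 0.0672). Among markers of lymphatic endothelium, another source of Prox1, 2 of 5 tested genes were higher and 0 lower. Flt4 (log2 fold change 1.47) and Reln (2.10) were called, while Lyve1 (0.28), Pdpn (-0.08) and Mmrn1 (-0.58) were not. The sum of all 7 markers was 29.1 to 61.6 CPM in control livers and 93.4 to 153 CPM in No-Trp livers, with Ccl21a at 0 in all 6. Their part in the result was not tested.

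Hnf4a was the most abundant of the factors. Its level was 470, 621 and 514 CPM in control livers and 889, 1170 and 764 CPM in No-Trp livers. The groups did not overlap and the adjusted p was 0.0468, but the log2 fold change of 0.83 (SE 0.25) was below the threshold of 1.

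The 3 FOXA genes had unequal values. Foxa2 was at 14.0, 25.7 and 20.5 CPM in control livers and at 27.6, 40.3 and 41.4 CPM in No-Trp livers, without overlap, and its log2 fold change of 0.88 (SE 0.27) had an adjusted p of 0.0526 by edgeR. Foxa3, the main FOXA mRNA of these livers, was at 52.2, 45.0 and 44.3 CPM and at 67.1, 95.9 and 55.9 CPM, also without overlap, with a log2 fold change of 0.65 (SE 0.22, adjusted p = 0.0681 by edgeR). Foxa1 was at 9.89, 28.3 and 14.7 CPM and at 16.4, 23.1 and 14.1 CPM, and its log2 fold change was 0.04 (SE 0.40, adjusted p = 0.949 by edgeR). The Foxa1 groups overlapped, with control mouse 102 highest of all 6 livers.

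Onecut1 was at 7.24, 30.7 and 12.1 CPM in control livers and at 14.1, 19.3 and 22.7 CPM in No-Trp livers. The control mice alone spanned the No-Trp values, and the log2 fold change was 0.19 (SE 0.51, adjusted p = 0.804 by edgeR). With library totals in place of TMM, the sign of Foxa1 (-0.29) and of Onecut1 (-0.12) turned, and the median of all genes moved to -0.30.

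The second question was whether the same diet changed the factors in the HCC53N xenografts. Cebpb was lower without Trp, and none of the other 6 members tested passed the test. The call of 1 in 7 stands against 0.36% of the 14704 genes tested in either direction and 0.116% in the lower direction. Onecut1 held too few reads to be tested, with 2, 2 and 1 reads in control xenografts 41, 43 and 40 and 6, 2 and 1 reads in No-Trp xenografts 35, 36 and 37. The median log2 fold change of the 7 tested members was 0.15, and that of all genes tested was -0.0045.

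Cebpb was at 76.6, 71.1 and 69.8 CPM in control xenografts 41, 43 and 40 and at 28.9, 36.2 and 27.1 CPM in No-Trp xenografts 35, 36 and 37. The highest No-Trp tumor was below the lowest control tumor. The log2 fold change was -1.25 (SE 0.16, adjusted p = 0.0235 by edgeR), a ratio of 0.421. The call was lost with resubmission as a covariate (-1.19, adjusted p = 0.157), where mouse 40 is the only unmarked control tumor, in one fit over all 12 libraries (-1.24, adjusted p = 0.0566), and without any one of tumors 35, 37, 41 and 43 (-1.26 to -1.16, adjusted p from 0.0649 to 0.0960).

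Hnf4a was at 166, 151 and 256 CPM in the control xenografts and at 183, 315 and 183 CPM in the No-Trp xenografts, with overlap (log2 fold change 0.24, SE 0.28). Foxa1 was at 60.1, 36.5 and 46.5 CPM and at 58.6, 52.8 and 38.1 CPM (0.05, SE 0.22), and Foxa2 was at 42.5, 32.2 and 65.3 CPM and at 49.2, 68.5 and 49.1 CPM (0.24, SE 0.26). Both pairs of groups overlapped. Cebpa, which adipocytes also express, was at 29.1, 16.4 and 45.7 CPM in control tumors and at 39.7, 31.9 and 30.5 CPM in No-Trp tumors (0.15, SE 0.33). The sum of 7 adipocyte markers was 14.4 to 69.9 CPM in control tumors and 411 to 867 CPM in No-Trp tumors, with 4 of the 7 called higher, and their part in the Cebpa value was not tested.

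Foxa3 and Prox1 were scarce in the tumors. Foxa3 had 56, 24 and 103 reads in control xenografts and 57, 37 and 28 reads in No-Trp xenografts, and the log2 fold change was -0.97 (SE 0.53, adjusted p = 0.395 by edgeR). Prox1 had 11, 9 and 7 reads and 16, 10 and 14 reads, a depth at which its log2 fold change of 0.17 had an SE of 0.53.

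**Figure D2:**
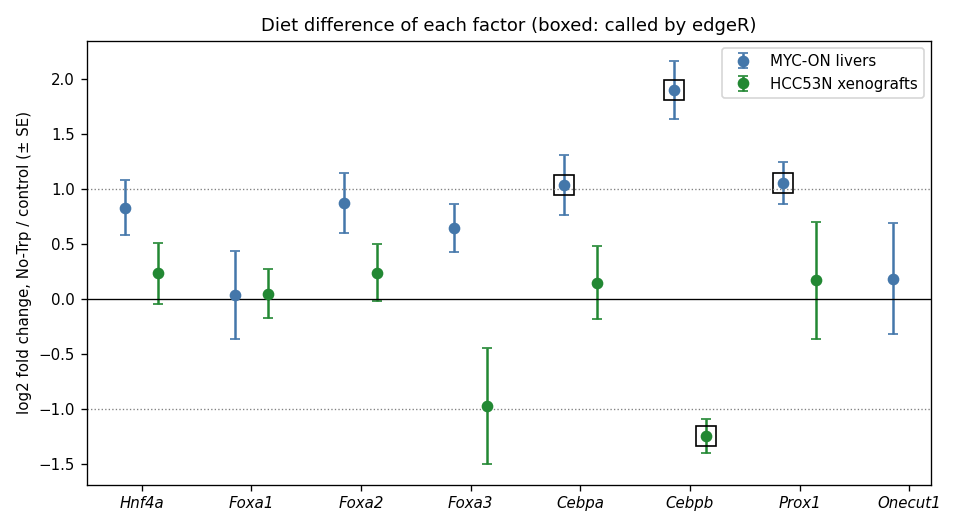
Log2 fold change of each factor, No-Trp over control, with its standard error, in MYC-ON livers and HCC53N xenografts (3 mice per group). Dotted lines lie at 1 and -1, the limits for a call, and boxes mark called genes: Cebpa (1.04), Cebpb (1.904) and Prox1 (1.06) in livers and Cebpb (-1.25) in xenografts; Onecut1 was not tested in xenografts.

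The third question was whether the diet difference itself differed between the models, tested as the interaction of diet and model over all 12 libraries. Cebpb was the 1 of 8 members with an adjusted p of at most 0.05, against 15.6% of the 15472 genes tested in either direction and 7.39% in the lower direction. Its diet difference was 3.12 lower in xenografts than in livers on the log2 scale (log2 -3.12, SE 0.32, adjusted p = 0.00165 by edgeR). Leaving out any one of the 12 libraries gave values from -3.29 to -2.79, with adjusted p from 0.000324 to 0.00805. In the 8 libraries without the resubmission mark, which hold a single control xenograft (mouse 40), the value was -3.15 with an adjusted p of 0.0552. For Foxa3 the interaction was -1.59 (SE 0.54, adjusted p = 0.0628 by edgeR); it was called by DESeq2 (adjusted p = 0.0196) and with resubmission as a covariate (0.0335). The values of Prox1 (-0.86, SE 0.39, adjusted p = 0.146), Cebpa (-0.86, SE 0.46, 0.221), Foxa2 (-0.61, SE 0.41, 0.331), Hnf4a (-0.57, SE 0.38, 0.335), Onecut1 (0.25, SE 1.02, 0.894) and Foxa1 (0.04, SE 0.49, 0.967) did not pass.

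The opposite moves of Cebpb were also read within each library, as Cebpa reads per Cebpb read, a ratio that needs no scaling between libraries. The ratio was 6.34, 7.03 and 5.29 in control livers and 3.15, 3.15 and 4.31 in No-Trp livers. It was 0.380, 0.231 and 0.655 in control xenografts 41, 43 and 40 and 1.37, 0.881 and 1.13 in No-Trp xenografts. On the log2 scale it differed by -0.82 (SE 0.19) between diets in livers and by 1.52 (SE 0.47) in xenografts. Neither pair of groups overlapped, and the two-sided exact permutation p was 0.1 in both, the smallest that 3 against 3 allows. Cebpa reads outnumbered Cebpb reads in every liver, and Cebpb reads outnumbered Cebpa reads in every control xenograft. Equal reads are not equal levels, since Cebpa has 2636 exonic bases and Cebpb 1504. Per kilobase of exon, Cebpa was above Cebpb in every liver, and Cebpb was above Cebpa in every xenograft on both diets.

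**Figure D3:**
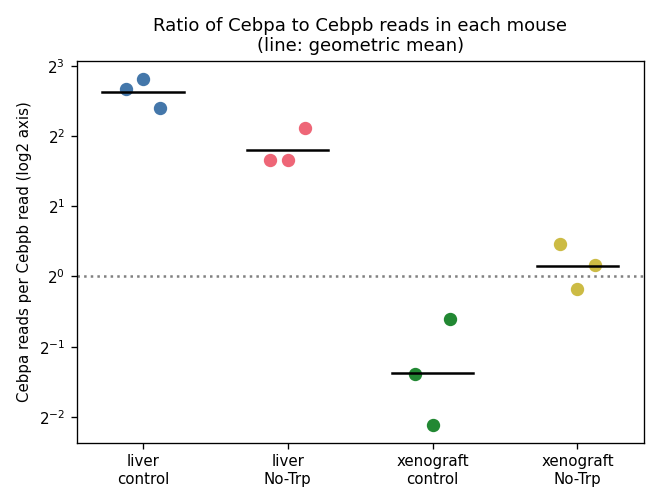
Cebpa reads per Cebpb read in each mouse on a log2 axis, with the geometric mean of each group as a line and a dotted line at equal reads. The No-Trp livers (3.15 to 4.31) lie below the control livers (5.29 to 7.03), whereas the No-Trp xenografts (0.881 to 1.37) lie above the control xenografts (0.231 to 0.655).

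Cebpb shares 312 exonic bases with Tmem189, a protein-coding gene on the opposite strand at chr2:167642608-167689822. The strand setting of the counting is not given in the sources used here, so reads in the shared stretch are uncertain. Tmem189 had 155 to 1051 reads per library, and its log2 fold change was 0.02 (SE 0.27) in livers and 0.25 (SE 0.19) in xenografts. Cebpb reads per Tmem189 read differed between diets by 1.82 (SE 0.41) in livers and by -1.53 (SE 0.23) in xenografts on the log2 scale, without overlap in either model (two-sided exact permutation p = 0.1, the smallest possible). The antisense gene Hnf4aos, which overlaps the Hnf4a span without shared exonic bases, had 1 to 47 reads per library.

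Markers of other cell types that express Cebpb are given beside it. In the livers, 1 of 11 macrophage markers was higher and 0 lower, with sums of 622 to 830 CPM in control and 486 to 963 CPM in No-Trp mice. Among 9 neutrophil and granulocyte precursor markers, 0 were higher and 1 lower, with sums of 192 to 239 CPM in control and 8.98 to 117 CPM in No-Trp livers. In the xenografts the macrophage sums were 656 to 994 CPM and 704 to 1091 CPM on the control and No-Trp diets, with 0 of 11 markers called by edgeR (3 higher at an unadjusted p under 0.05) and 2 called higher by DESeq2. Over all genes there, 2483 of 14704 had an unadjusted p under 0.05 by edgeR, and DESeq2 called 250 of 19524 higher. Neutrophil and granulocyte precursor sums were 10.8 to 12.4 CPM in control and 17.5 to 31.8 CPM in No-Trp tumors, and adipocyte markers had the higher sums on the No-Trp diet given above, while Cebpb was lower. The part of these cells in the Cebpb result was not tested.

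The factors were next compared between the xenografts and the livers on the same diet. These groups differ in model, sex, host strain, site and cell make-up at once, which cannot be told apart. On the control diet 5 members were lower and 3 higher in xenografts, so that 8 of 8 were called, where 43.5% of all 15472 genes tested were called (20.2% lower, 23.3% higher). On the No-Trp diet 6 were lower and 1 higher, where 43.7% of all genes were called (19.1% lower, 24.5% higher).

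Onecut1, Prox1 and Foxa3 were scarce in the tumors. Onecut1 had 998 reads summed over the 3 control livers and 5 over the 3 control xenografts, a scaled ratio of 194 (95% counting interval 83.0 to 600.2), and on the No-Trp diet 853 and 9 reads, a ratio of 165 (86.5 to 362). Prox1 had 1883 and 27 reads on the control diet, a ratio of 67.9 (46.5 to 103), and 2815 and 40 reads on the No-Trp diet, a ratio of 122 (89.7 to 172). Foxa3 had 2989 and 183 reads, a ratio of 15.9 (13.7 to 18.6), and 3452 and 122 reads, a ratio of 49.2 (41.1 to 59.5). These intervals cover counting error only. In the edgeR fit all 3 genes were called lower on both diets, with adjusted p of 5.45e-06 or smaller.

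Cebpa and Hnf4a were lower in the xenografts but remained well above the counting limit. For Cebpa the log2 difference between xenografts and livers was -2.84 (SE 0.35, adjusted p = 2.48e-05) on the control diet and -3.69 (SE 0.36, adjusted p = 3.66e-06) on the No-Trp diet by edgeR. For Hnf4a it was -1.49 (SE 0.28, adjusted p = 0.000615) and -2.05 (SE 0.28, adjusted p = 5.81e-05). No xenograft reached the lowest liver in either gene, with Hnf4a at 151 to 315 CPM in the tumors and 470 to 1170 CPM in the livers.

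Foxa1 was higher in the xenografts on both diets, with log2 differences of 1.44 (SE 0.35, adjusted p = 0.00389) and 1.48 (SE 0.35, adjusted p = 0.00325) by edgeR. Foxa2 was higher on the control diet (1.22, SE 0.29, adjusted p = 0.00346) but did not pass on the No-Trp diet (0.61, SE 0.29, adjusted p = 0.0862), where library totals gave 1.16 (adjusted p = 0.00401). Cebpb was higher in xenografts than in livers on the control diet (1.06, SE 0.22, adjusted p = 0.00129) and lower on the No-Trp diet (-2.06, SE 0.23, adjusted p = 9.23e-06).

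The FOXA family differed in make-up between the models. Levels per kilobase of exon, which allow genes to be set beside each other, were expressed as shares of the FOXA sum within each library. Foxa3 made up 72.9%, 51.7% and 60.8% of that sum in control livers and 64.9%, 64.7% and 54.0% in No-Trp livers. It made up 2.78%, 2.67% and 5.27% in control xenografts 41, 43 and 40 and 2.42%, 1.25% and 1.66% in No-Trp xenografts. Foxa2 held 49.5% to 64.7% of the FOXA sum over the 6 xenografts and 18.3% to 37.4% over the 6 livers, and Foxa1 held 31.0% to 47.7% and 8.67% to 20.7%. Each of the 3 shares was separated between all xenografts and all livers. Foxa1 reads per Foxa3 read differed by 5.75 (SE 0.71) on the control diet and by 7.11 (SE 0.18) on the No-Trp diet on the log2 scale, higher in xenografts (two-sided exact permutation p = 0.1 in both, the smallest possible).

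On the control diet the FOXA sum was 37.9 ± 4.21 CPM per kilobase in livers and 37.8 ± 10.2 in xenografts (SD, n = 3 each; log2 difference -0.04, SE 0.25; two-sided exact permutation p = 1). On the No-Trp diet it was 58.1 ± 12.7 in livers and 41.9 ± 6.76 in xenografts (log2 difference -0.46, SE 0.22; two-sided exact permutation p = 0.1, the smallest possible). With library totals these log2 differences were 0.13 and 0.08, so the direction of the difference in the sum turned with the scaling on both diets.

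**Figure D4:**
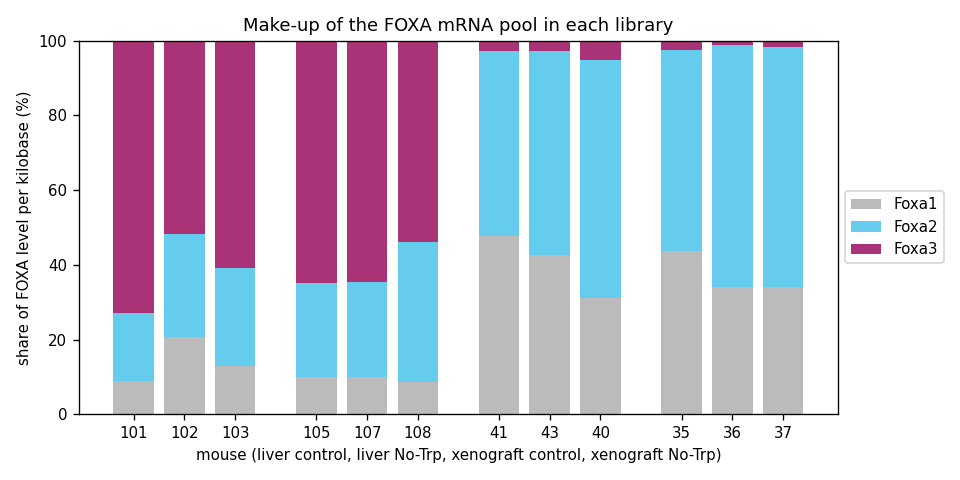
Share of Foxa1, Foxa2 and Foxa3 in the summed FOXA level per kilobase of exon, in percent, with 1 bar per mouse in the order of groups named on the axis. Foxa3 fills 51.7% to 72.9% of the bars of the livers and 1.25% to 5.27% of the bars of the xenografts.

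Per kilobase of exon, the order of the 8 levels in control livers was led by Hnf4a at 123 ± 17.8 CPM per kilobase and Cebpa at 82.5 ± 21.7 (SD, n = 3). Foxa3 (23.1) and Cebpb (23.1) came next and overlapped, and Foxa2 (9.20), Foxa1 (5.52), Onecut1 (4.21) and Prox1 (3.47) followed, each overlapping its neighbour. In No-Trp livers Hnf4a (216) and Cebpa (167) overlapped, and Cebpb came next at 85.2 ± 29.7, above Foxa3 (35.8 ± 10.1) without overlap. In control xenografts Cebpb stood first at 48.2 ± 2.38, overlapping Hnf4a at 43.8 ± 13.1, and above Foxa2 (21.4), Foxa1 (14.9) and Cebpa (11.5), which overlapped in turn. In No-Trp xenografts Hnf4a led at 52.0 ± 17.5 without overlap, and Foxa2 (25.5), Cebpb (20.4), Foxa1 (15.6) and Cebpa (12.9) each overlapped the next.

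A list of 30 other liver transcription factors places the 8 in their network. In livers 14 of the 30 were called higher and 0 lower without Trp by edgeR (3 lower at an unadjusted p under 0.05, and 1 called lower by DESeq2), with a median log2 fold change of 1.06. Over all genes tested, 9.28% were called higher. Nr1i3, the xenobiotic receptor CAR, had the largest value (3.15, SE 0.58, adjusted p = 0.0196), followed by Dbp, a PAR leucine zipper factor of the clock output (2.63, SE 0.43, adjusted p = 0.0175), and Onecut2, the paralog of Onecut1 (2.44, SE 0.62, adjusted p = 0.0340). These calls were lost when some livers were left out. Nr1i3 was lost without any one of livers 101, 103, 105 and 107 (2.72 to 3.95 over all left-out livers, adjusted p up to 0.0873), Dbp without any one of 101, 103 and 105 (2.32 to 3.10, up to 0.0873) and Onecut2 without any one of 101, 103, 105 and 107 (2.03 to 3.34, up to 0.124). Values below 0 included those of Sall4, an oncofetal zinc finger factor (-1.82, SE 0.60, adjusted p = 0.0621) and Gata4 (-0.54, SE 0.19, adjusted p = 0.0718), which did not pass. In xenografts 0 of 28 tested factors were called by edgeR or by DESeq2. By edgeR 3 had an unadjusted p under 0.05, as did 2483 of all 14704 genes tested. The largest values in each direction were Sox9 (-0.93, SE 0.17, adjusted p = 0.0515 by edgeR) and Klf15 (0.76, SE 0.46). In the interaction 10 of the 30 were called lower in xenografts, against 7.39% of all genes tested.

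In xenografts against livers on the control diet, 15 of the 30 were lower and 6 higher, against 20.2% and 23.3% of all genes tested. Sox9, a factor of biliary and progenitor cells, was at 2.93 to 5.16 CPM over the livers and at 67.2 to 163 CPM over the xenografts (log2 difference 5.07 on the control diet). Onecut2 was at 11.5, 34.0 and 6.87 CPM in control livers and at 223, 175 and 225 CPM in control xenografts (log2 difference 3.57). On the control diet this is the reverse of its paralog Onecut1. On the No-Trp diet the Onecut2 difference did not pass (0.82, SE 0.47, adjusted p = 0.152 by edgeR), while that of Onecut1 was -7.33. Nr5a2, a nuclear receptor known as LRH-1, was at 30.9 to 74.8 CPM over the livers and at 0.343 to 1.27 CPM over the xenografts.

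**Figure D5:**
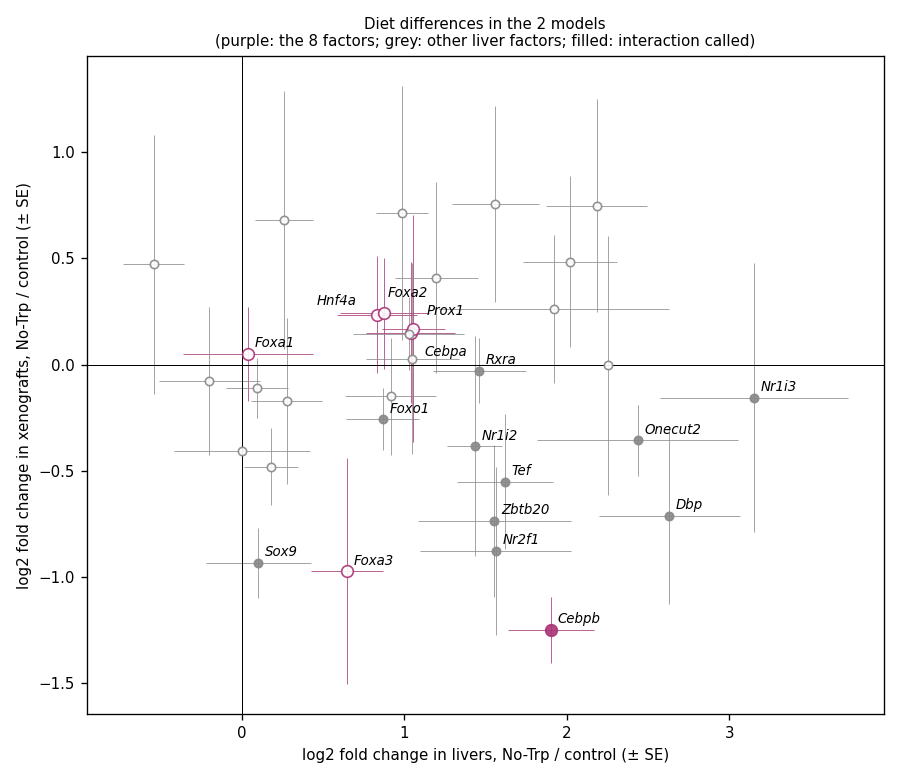
Log2 fold change without Trp in livers (horizontal) and in xenografts (vertical), each with its standard error, for 7 of the 8 factors in purple and 27 other liver factors in grey; Onecut1 was not tested in xenografts. Filled points passed the interaction test, and Cebpb lies at 1.904 and -1.25, the only labelled purple point that is filled.

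Genes commonly listed as targets of these factors are given as counts, to be read against the 9.28% of all genes called higher and the 16.5% called either way in livers. In livers without Trp, 10 of 29 tested HNF4A targets were higher and 0 lower (median log2 fold change 1.25), and 6 of 15 FOXA targets were higher and 1 lower (median 1.84). Of 23 C/EBP targets 6 were higher and 2 lower (median 1.43), of 10 ONECUT1 targets 1 was higher and 1 lower, and of 9 PROX1 partners and targets 1 was higher and 0 lower. The counts of the last 2 lists are near the share over all genes. Tat, tyrosine aminotransferase, listed for FOXA and C/EBP, had the largest log2 fold change of these lists (4.43, SE 1.06, adjusted p = 0.0298 by edgeR). It was at 37.0, 496 and 56.3 CPM in control livers 101, 102 and 103, and its call was lost without any one of livers 101, 103, 105, 107 and 108, with log2 fold changes from 3.94 to 6.48 over all left-out livers and adjusted p up to 0.101. Saa2 and Saa1, acute phase genes listed as C/EBP targets, were lower at -4.61 (SE 1.05, adjusted p = 0.0263) and -3.38 (SE 0.64, adjusted p = 0.0200), while Cebpb itself was higher. Saa2 was at 0 to 5.55 CPM, and its call was lost without any one of livers 101, 103, 105, 107 and 108 (-8.90 to -3.96 over all left-out livers, adjusted p up to 0.0940), whereas that of Saa1 was lost without liver 103 or 105 (-3.79 to -3.06, adjusted p up to 0.0873). DESeq2 called more of them, with 15 HNF4A, 9 FOXA and 15 C/EBP targets higher, where it called 1653 of all 18881 genes higher. In the xenografts 0 of the 66 tested genes of these 5 lists were called by edgeR. At an unadjusted p under 0.05 by edgeR, 7 were higher and 0 lower, where 2483 of all 14704 genes passed either way. DESeq2 called 6 higher, all from the C/EBP list, where it called 250 of all 19524 genes higher.

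Between the models, the sum of 29 HNF4A targets was 8890 to 20054 CPM in control livers and 446 to 1200 CPM in control xenografts, and 28 of the 29 were called lower. All 15 FOXA targets in the table were called lower in control xenografts, with sums of 607 to 1280 CPM against 12114 to 39485 CPM in control livers. Of 23 tested C/EBP targets, 22 were lower and 0 higher on the control diet. Over all genes tested, 20.2% were called lower there.

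Other members of the families were counted likewise in livers. Of 9 genes of the C/EBP family and its partners, 2 were higher, Cebpb and Cebpa, and 0 lower. Of 19 other forkhead genes tested 2 were higher and 2 lower, near the 16.5% called over all genes. The lower ones included Foxj1 (-3.63, SE 0.78, adjusted p = 0.0239), a factor of ciliated cells, and Foxm1 (-2.12, SE 0.53, adjusted p = 0.0328), a factor of dividing cells. The Foxj1 call was lost without any one of livers 101, 103, 105 and 107 (-4.30 to -2.80 over all left-out livers, adjusted p up to 0.0873) and the Foxm1 call without any one of livers 101, 103, 105 and 108 (-2.62 to -1.69, adjusted p up to 0.0997).

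The genes whose profile over the 12 libraries was closest to each member are given by the root mean square difference of centred log2 CPM, among 11667 genes. For Hnf4a these were Ctage5 (0.19) and Adi1 (0.21). For Cebpb they were Igfbp4 (0.30) and Sdc4 (0.36), and for Cebpa they were Bckdhb (0.23) and Mtus1 (0.28). For Prox1 they were Hlf (0.26) and Nr5a2 (0.28), and for Onecut1 they were Creb3l3 (0.42) and Inhbe (0.44). For Foxa3 they were Eva1a (0.37) and Aldh4a1 (0.47), for Foxa2 Myd88 (0.21) and Dnajb14 (0.24), and for Foxa1 Atxn7l1 (0.23) and 2810474O19Rik (0.26). The points share 2 models and 2 diets, so this likeness is a description.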

How the data were processed

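The data are 12 RNA-seq libraries from 12 mice. The authors trimmed reads with Trim Galore, aligned them to mm10 with STAR 2.7.2b and counted them per gene with HTSeq, and the deposited values are whole read counts per gene symbol without normalization. Strand setting and rule for overlaps are not given in the sources used here. Between 24.7% and 39.4% of the reads per library were not counted on genes (no feature, ambiguous or not uniquely aligned) and stayed out of library sizes. Groups came from the sample titles. Replicate libraries differed by 36.8 to 291 times the counting noise, so all were kept as separate replicates. Whether tumors of 1 line are independent is not stated beyond 1 tumor per mouse.

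Diets were compared within each model, and models over all 12 libraries, with edgeR 4.0.16 in R 4.3.3 (two-sided glmQLFTest after a robust glmQLFit, with TMM factors and filterByExpr, and Benjamini-Hochberg adjustment over all genes tested). Genes were called at adjusted p up to 0.05 with a log2 fold change of 1 or more either way, and in the interaction by the adjusted p alone. A standard error is the log2 fold change divided by the square root of F. CPM per kilobase uses the union of annotated exons. The steps were tested on simulated counts. The members, lists and tests were chosen with earlier results of these data known. Named genes are the 8 members, the 2 largest and 2 smallest liver diet changes of each list, the other liver factors called in the interaction or among the 3 largest changes either way of a comparison, the 2 genes most like each member, and genes overlapping a member; 1 gene that the rule names is not reported here. Rn45s, Ccl21a and the 5 lymphatic markers tested in livers were named after their values were seen. Alternatives were DESeq2 1.42.0, RLE factors, library totals, no filter, a minimum of 10 counts per library, the resubmission mark as a covariate, the adjusted p alone, one fit over all libraries, fits per diet, and leaving out each library. The fit on libraries without a resubmission mark and the read ratios were added after the data were seen. WT livers were not analysed here.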

Additional observations from a re-analysis of the deposited data

Results flagged for a closer look

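The diet difference differed between livers and xenografts, by the interaction test over all 12 libraries (edgeR, adjusted p of at most 0.05), for 1 of the 8 members and 10 other liver factors. Over all 15472 genes tested, 15.6% were called, 7.39% in the lower direction. The count of 1 in 8 members is near these shares. Each value is the diet difference in xenografts minus that in livers on the log2 scale. Cebpb had -3.12, from a rise in all 3 No-Trp livers and a fall in all 3 No-Trp xenografts. Of the clock output factors of the PAR leucine zipper family, Dbp had -3.31 and Tef -2.14. Among nuclear receptors, Nr1i3 had -3.22, Nr2f1 -2.42, Nr1i2 -1.76 and Rxra -1.46. Onecut2 had -2.76, Zbtb20 -2.26, Foxo1 -1.10 and Sox9 -1.004. Over the 12 fits that each left out 1 library, the calls of Cebpb, Dbp, Tef, Rxra and Foxo1 held in all 12. The call held in 10 fits for Onecut2, 9 for Nr1i2, 8 for Nr2f1, 5 for Nr1i3, 4 for Zbtb20 and 2 for Sox9. Nr2f1 had only 8 to 29 reads per liver library.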

How the results depend on the processing

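Directions of the called members held under every alternative tried, but several calls rest on few mice. With library totals in place of TMM, 1 of the 8 members was called in livers, the median of all genes was -0.30, and 732 of 2264 called genes were higher, against 1311 of 2337 with TMM. In the libraries without a resubmission mark, 0 members and 0 of the 30 other liver factors were called in livers (4 members and 18 other factors at an unadjusted p under 0.05), 0 members in xenografts (2 at an unadjusted p under 0.05), 0 in the interaction and 5 in xenografts against livers on the control diet; 0 genes of all those tested were called for diet there, with 4948 in livers and 2081 in xenografts at an unadjusted p under 0.05. With resubmission as a covariate, 0 members were called in xenografts and 2 in the interaction, DESeq2 called 2 in the interaction, and one fit over all 12 libraries called 0 in xenografts. In xenografts the only control tumor without the mark is mouse 40, so that the fit without marked libraries sets 1 control tumor against 3, assumed to vary like the No-Trp tumors, and the covariate rests on the same tumor; values there say nothing on whether the mark matters. The causes were not tested.

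Leaving out 1 library at a time gave 0 to 3 members called in livers (0 without 101 or 103, 1 without 105 or 107), 0 to 16 other factors in livers (2 without 101, 0 without 103, 3 without 105), 0 to 1 members and 0 to 1 other factors in xenografts (members 0 without 35, 37, 41 or 43, other factors 1 without 40), 1 to 2 members in the interaction (2 without 43) and 7 to 8 in xenografts against livers on the control diet. Where 2 mice were left in a group, the spread of a gene was still estimated over all groups of the fit together. Calls over all genes in livers moved as well, from 16.5% with all libraries. The share was 2.06% without 101, 22.3% without 102, 0.0562% without 103, 2.55% without 105, 8.85% without 107 and 14.8% without 108. Without liver 103, 8 genes of all those tested were called in livers, with 4363 at an unadjusted p under 0.05.

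Signs turned only for genes that were not called with all libraries. With library totals the liver log2 fold change was -0.29 for Foxa1, -0.12 for Onecut1, -0.16 for Arntl, -0.22 for Sox9 and -0.29 for Tmem189, and in libraries without the mark it was -0.12 for Foxa1, -0.35 for Onecut1 and -0.058 for Arntl. In xenografts, with the covariate and in libraries without the mark, values were -0.19 and -0.19 for Hnf4a, -0.24 and -0.24 for Foxa2, -0.43 and -0.44 for Cebpa and -0.047 and -0.050 for Tmem189. In the interaction Foxa1 was -0.063 by DESeq2, -0.065 with RLE factors and -0.36 with the covariate, and Onecut1 was -0.058 with the covariate. Ranges over left-out libraries that crossed 0 were, in livers, -0.25 to 0.54 (Foxa1), -0.18 to 0.95 (Onecut1), -0.031 to 0.43 (Arntl), -0.11 to 0.26 (Sox9), -0.19 to 0.19 (Tmem189) and -1.10 to 1.09 (Cyp2c44, an ONECUT1 target, called only without liver 102), in xenografts -0.071 to 0.50 (Hnf4a), -0.11 to 0.25 (Foxa1) and -0.15 to 0.56 (Cebpa), and in the interaction -0.46 to 0.33 (Foxa1) and -0.66 to 0.61 (Onecut1).

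No paired analysis was possible because no 2 groups share animal numbers. With 3 mice per group, an exact test of a single value cannot reach a p below 0.1. Onecut1 and Prox1 in xenografts are limited by depth, at 1 to 6 and 7 to 16 reads per tumor.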
